A study of Mus musculus with 2 samples.

Results

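The MS4A and TMEM176 families were followed in mouse primary CD11b-positive cells with and without interferon regulatory factor 8 (IRF8), through every probe whose gene name began with Ms4a or Tmem176. This name rule found 3 of the 7976 genes listed on either array (a probe without a symbol counted as its own gene): Ms4a6c, Ms4a6d and Tmem176b, each with 1 probe. Ms4a6c and Tmem176b were listed on both arrays and Ms4a6d on replicate 2 alone. The families were selected on the ratios measured here, since the mean ratios of Ms4a6c and Tmem176b had rank 1 and rank 9 from the lowest among 5192 genes. Their ratios are given as a description without a test. RefSeq holds 21 Ms4a genes, all on chromosome 19, and 2 Tmem176 genes, both on chromosome 6. Expression of family members other than these 3 was not analysed here.

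The groups were wild type (wt) cells and cells of the IRF8 KO genotype, both primary, CD11b-positive and untreated. CD11b, encoded by Itgam, is an integrin of myeloid cells. The series gives 2 replicates, each a two-colour array with wt RNA in Cy5 and IRF8 KO RNA in Cy3. The labels do not say whether they came from separate animals, so the spread between these arrays may be technical. P-values measure only that spread. The main fit pooled it over all genes, so a gene's own spread between the arrays did not enter its p-value there. Dyes were never exchanged, so a dye effect of a probe and the genotype cannot be told apart. Irf8 was represented by 0 probes, so the direction of every ratio rests on the labelled dyes. Age, tissue and the knockout allele are not given in the sources used here.

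MS4A and TMEM176 proteins cross the membrane 4 times and resemble CD20. CD20 itself, Ms4a1, is the B cell protein targeted by therapeutic antibodies, and Ms4a2 is the beta chain of the high-affinity IgE receptor of mast cells and basophils. Several other family members are made by monocytes and macrophages. Tmem176b and its partner Tmem176a lie in intracellular vesicles of dendritic cells and macrophages, where Tmem176b acts as a cation channel. IRF8 directs the monocyte and dendritic cell lineages, and binds DNA together with ETS factors such as PU.1 at composite sites, or at interferon-stimulated response elements.

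The stretches before the start sites of the strongest members, both of which were lower in IRF8 KO cells, are shown with matches to the searched motifs in capitals (RefSeq, GRCm38.p6, 5′ to 3′ on each gene's strand). The Ms4a6c stretch is chr19:11469260-11469367 on the plus strand, and the Tmem176b stretch is chr6:48841375-48841482 on the minus strand.
Ms4a6c: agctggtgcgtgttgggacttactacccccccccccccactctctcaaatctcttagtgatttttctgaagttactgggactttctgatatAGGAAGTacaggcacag
Tmem176b: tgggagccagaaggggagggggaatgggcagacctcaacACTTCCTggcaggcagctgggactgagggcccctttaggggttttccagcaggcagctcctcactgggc
Each stretch has 108 bases and ends at the base before an annotated start site. For Tmem176b the 108 bases are all that lie between its outermost start and the start of Tmem176a, which is transcribed the opposite way. The capitals mark AGGAAGT, a PU.1-type ETS site, on the shown strand for Ms4a6c and as its reverse complement for Tmem176b.

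Motifs were searched on both strands in RefSeq windows of 250 bases before to 50 bases after each start. The Ms4a6c window and 1 of the 3 Tmem176b windows held AGGAAGT, which 9.35% of all 32851 windows hold. Among 18 Ms4a genes with a window, 3 held it (Ms4a6b, Ms4a6c and Ms4a12). The ETS-IRF composite, searched as GGAA, any 2 bases and GAAA, is in 2.72% of all windows. The response element core, searched as GAAA, any 2 bases and GAAA, is in 3.44%. Each matched 0 times in the windows of Ms4a6c and Tmem176b. The composite shares the letters GGAA with the ETS site. Ms4a6d is named only, and a match of letters is not evidence of binding.

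Ms4a6c gave a raw signal (spot minus background) of 8356 in wt and 727 in IRF8 KO cells on replicate 1. On replicate 2 the Ms4a6c signals were 13491 in wt and 3754 in KO. Both wt signals lay above both KO signals. The deposited log2 ratio of IRF8 KO over wt for Ms4a6c was -3.55 on replicate 1 and -2.24 on replicate 2, with a mean of -2.89 ± 0.93 (SD, n = 2), which is 7.43-fold lower in KO. Its probe covers chromosome 19, 11545604 to 11545674 (mouse build 37), inside the span of the gene at 11543857 to 11556687, and matches 1 gene ID.

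Tmem176b gave a raw signal of 19566 in wt and 1865 in IRF8 KO cells on replicate 1. On replicate 2 the Tmem176b signals were 6284 in wt and 2918 in KO. The wt signals again exceeded both KO signals, but the raw wt signal differed more between the arrays than the raw KO signal. The log2 ratio of Tmem176b was -3.42 on replicate 1 and -1.50 on replicate 2, with a mean of -2.46 ± 1.36 (SD, n = 2), which is 5.49-fold lower in KO. Its probe covers chromosome 6, 48783838 to 48783908 (build 37). The probe begins 29 bases inside the lower end of the gene's span at 48783809 to 48790987, which is the 3′ end of this minus-strand gene, and matches 1 gene ID.

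Ms4a6d, which lies in the same chromosome 19 cluster, was listed on replicate 2 with a raw signal of 1984 in wt and 1027 in IRF8 KO cells. Its log2 ratio there was -1.34, 2.53-fold lower in KO, with no second array to check it. The Ms4a6d probe (chromosome 19, 11664503 to 11664573, build 37) lies 118899 bases from that of Ms4a6c and matches 1 gene ID. On replicate 2 the order from the lowest ratio was therefore Ms4a6c, Tmem176b and Ms4a6d. The last 2 differed by less than the gap of either Ms4a6c or Tmem176b between the arrays (1.31 and 1.92 on the log2 scale).

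**Figure D1:**
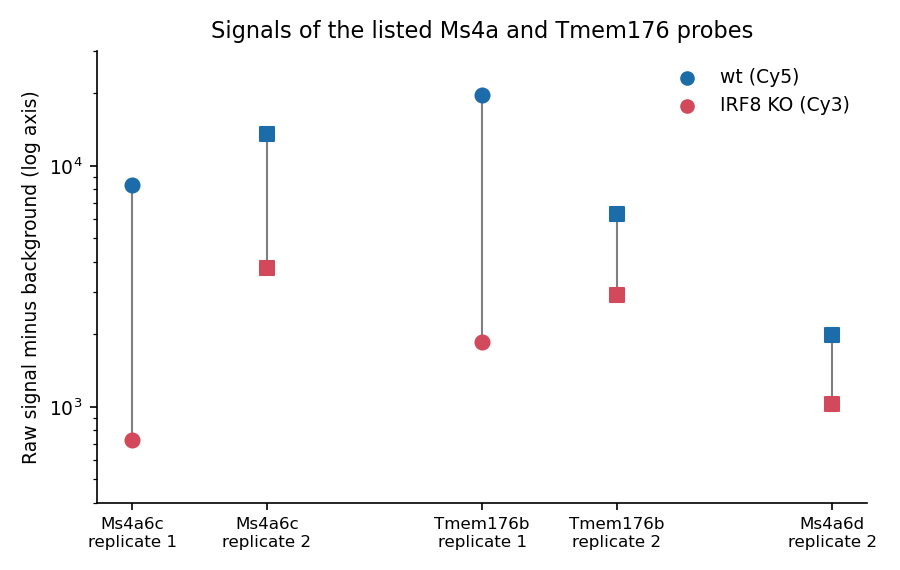
Raw signal on a log axis for each listed member, with wt (Cy5) in blue and IRF8 KO (Cy3) in red, circles for replicate 1 and squares for replicate 2. The wt point lies above the KO point in all 5 pairs, and the Ms4a6c gap runs from 727 to 8356 on replicate 1.

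Ms4a6c and Tmem176b were at least 2-fold lower in KO on both arrays, which 2.75% of the 5192 genes were. Since the families were chosen by these ratios, nothing is read from that count. Ms4a6d passed 2-fold on its array, as did 9.85% of the 8702 probes listed on replicate 2. The deposited ratios of replicate 2 lie 0.39 below the ratios of the raw signals. Without that constant the raw wt signal of Ms4a6d exceeds the KO signal 1.93-fold, that of Tmem176b 2.15-fold and that of Ms4a6c 3.59-fold on replicate 2. Centred on the array's median, the log2 ratios on replicate 2 were -1.93 for Ms4a6c, -1.19 for Tmem176b and -1.04 for Ms4a6d.

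Some KO signals lay close to the dimmest that were listed. The KO signal of Ms4a6c on replicate 1 was 1.61 times the lowest listed KO signal, and 11.0% of listed KO signals were lower. That of Ms4a6d on replicate 2 was 1.17 times the lowest, with 2.48% lower. The KO signals of Tmem176b were 4.14 and 3.33 times the lowest on replicates 1 and 2. No signal of these 3 probes exceeded 19566, and the scanner's ceiling was thus not near.

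**Figure D2:**
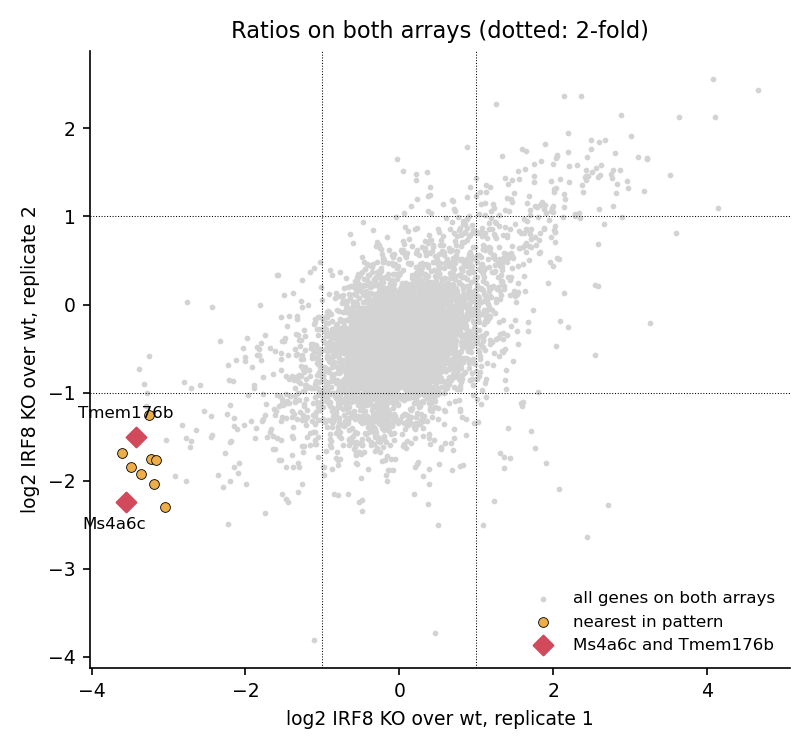
Log2 ratio of IRF8 KO over wt on replicate 1 (horizontal) and replicate 2 (vertical), 1 point a gene, with dotted lines at 2-fold and orange points for the genes nearest in pattern. Ms4a6c (-3.55 and -2.24) and Tmem176b (-3.42 and -1.50) lie at the lower left, further from 0 on replicate 1 than on replicate 2.

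After scaling, the channel that differed more between the arrays was KO for Ms4a6c and wt for Tmem176b. To set the arrays side by side, each signal was divided by its channel's median over the 5678 probes on both arrays, a step chosen after the data had been seen. Ms4a6c in wt cells was 4.78 times the median on replicate 1 and 3.51 times on replicate 2, while in KO cells it went from 0.38 to 1.00 times the median. Its scaled wt signal was thus 1.36-fold lower and its scaled KO signal 2.61-fold higher on replicate 2. The amount of probe in a spot can differ between arrays and moves both channels together, which division by a median does not remove. Which genotype's RNA differed between the arrays therefore cannot be told from 1 probe.

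Tmem176b had the larger scaled difference in wt, under the same limit. In wt cells it was 11.2 times the median on replicate 1 and 1.63 times on replicate 2, which is 6.86-fold lower. In KO cells it was 0.98 and 0.78 times the median, a difference of 1.26-fold. Unscaled, the wt signal of Tmem176b was 3.11-fold lower on replicate 2, whereas its KO signal was 1.56-fold higher. Unscaled Ms4a6c signals were 1.61-fold higher in wt and 5.16-fold higher in KO on replicate 2. The larger shift was thus in the same channel of each gene on both scales, although the direction of the smaller shifts did not hold. Neither scale removes a difference in the amount of probe.

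Among the 143 genes at least 2-fold lower on both arrays, the wt level changed by a median of -0.81 (log2, replicate 2 minus replicate 1, scaled) and the KO level by -0.11. Over all genes these medians were -0.15 and -0.06. The Tmem176b wt shift of -2.78 was exceeded downward by 3 of the 143 genes. The Ms4a6c wt shift of -0.45 was exceeded downward by 94, and its KO shift of 1.39 was exceeded upward by 5. In bulk RNA, fewer cells of a type and less RNA per cell cannot be told apart.

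**Figure D3:**
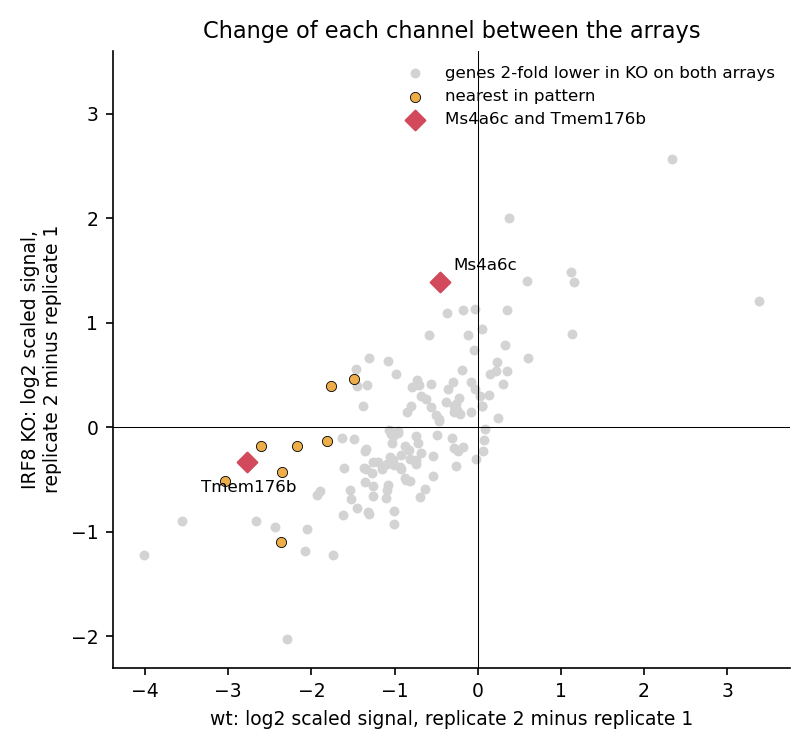
Change of the scaled log2 signal from replicate 1 to replicate 2 in wt (horizontal) and IRF8 KO cells (vertical) for the 143 genes at least 2-fold lower in KO on both arrays, with orange points for the genes nearest in pattern. Tmem176b lies far to the left (-2.78 in wt) near 0 in KO, and Ms4a6c lies near 0 in wt (-0.45) and high in KO (1.39). Both shifts of a gene include any difference between the arrays in the amount of probe in its spot.

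The genes most like each member were found by Euclidean distance over the log2 ratios of the 2 arrays. With 2 values a gene, this likeness is a coarse one. Nearest to Ms4a6c were the endocytic receptor Lrp1 (distance 0.37), the heme-degrading enzyme Hmox1 (0.40), Phf11a (0.41) and the growth factor receptor Csf1r (0.51), whose wt signal of 62900 on replicate 1 was near the scanner's ceiling. Near to Tmem176b were the transcription factor Spic (0.30), the adhesion receptor Adgre4 (0.32), Hmox1 (0.35) and the neonatal Fc receptor Fcgrt (0.36). Hmox1 was near to both. The members were 0.75 apart, which placed Tmem176b at rank 9 from Ms4a6c and Ms4a6c at rank 17 from Tmem176b.

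The scaled channel signals of these neighbours in pattern resembled Tmem176b more than Ms4a6c. The scaled wt level was lower on replicate 2 for each of these, by 2.80-fold for Lrp1, 3.40-fold for Hmox1, 3.52-fold for Phf11a and 4.51-fold for Adgre4. The scaled wt drop was 5.11-fold for Fcgrt, 5.15-fold for Csf1r and 8.22-fold for Spic. Their KO levels differed by between 1.10-fold (Phf11a) and 2.14-fold (Csf1r, lower on replicate 2). Ms4a6c, at 1.36-fold in wt and 2.61-fold in KO, lay outside both ranges. This comparison is over 1 array a side and has no test. It does not remove differences in the amount of probe in a spot, which move both channels together. The neighbours were picked by their ratios on both arrays, which largely set the wt shift relative to the KO shift. Mainly the shift common to both channels was free to differ, so nothing about either member is read from the likeness.

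Monocyte, macrophage and dendritic cell markers were lower with the members, whereas neutrophil markers and Itgam were higher. Of 10 monocyte and macrophage markers, 7 were on both arrays and 6 fell by limma, a linear model over all genes (adjusted p under 0.05 over 5192 genes). Of all genes 3.41% fell, 2.81% rose and 6.22% passed in either direction. The 7 markers had a median log2 ratio of -2.14, from -2.77 on replicate 1 and -1.52 on replicate 2, and Cx3cr1, at 0.10, was the one that did not pass. Marco passed on its mean, although its log2 ratio was -2.76 on replicate 1 and 0.03 on replicate 2. With each array centred on its median, Mpeg1 and Marco did not pass (limma adjusted p = 0.14 and 0.344). Their centred mean log2 ratios were -1.16 and -1.21. In the centred fit, unlike the main one, a gene's own spread between the arrays also entered the p-value. The summed raw signal of the 7 markers was 199925 and 93937 in wt and 34545 and 52034 in KO cells on replicates 1 and 2. Divided by the channel medians, these sums were 114.4 and 24.4 in wt and 18.1 and 13.8 in KO cells. The vascular adhesion molecule Vcam1, which red pulp macrophages carry, fell by 2.14 ± 0.88 (SD, n = 2, limma adjusted p = 9.85e-06), and its scaled wt level was 6.35-fold lower on replicate 2. The part of macrophage content in the ratios of Ms4a6c and Tmem176b was not tested.

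The dendritic cell markers Flt3 and Bst2, the 2 of 7 on both arrays, fell, with log2 ratios of -1.51 and -1.50, but neither passed with centred arrays (limma adjusted p = 0.0967 and 0.0728). Their centred means were -1.36 and -1.34, and their own spread between the arrays entered that fit. Their median was -2.06 on replicate 1 and -0.94 on replicate 2, and their raw signals summed to 6357 and 6753 in wt and 1514 and 4641 in KO cells. As multiples of the channel medians, these sums were 3.64 and 1.75 in wt and 0.79 and 1.23 in KO cells. On replicate 2 alone, Cd209a was higher in KO (log2 ratio 1.21, signals 1650 in wt and 5015 in KO) and Ccr7 stood at -0.30. Of 8 neutrophil markers, 5 were on both arrays, 3 rose against 2.81% of all genes and 0 fell, and their median was 2.21, from 3.52 on replicate 1 and 0.81 on replicate 2. Their summed raw signals were 99557 and 191640 in wt and 271287 and 356822 in KO cells. As multiples of the channel medians, these sums were 57.0 and 49.8 in wt and 142.4 and 94.8 in KO cells. The 2 that did not pass, Ltf (0.01) and S100a8 (-0.03), gave 45560 and 42617 of the raw wt sum on replicate 1. Their highest signals, 60656 and 63158, were near the scanner's ceiling, as were those of Camp (60154) and Mpo (62663). Ms4a3 and Ms4a2, the family members that mark progenitors and mast cells, were not among the genes listed here. Among T cell, mast cell and progenitor markers, 1 each was on both arrays: Thy1 (-0.31) and Kit (-0.29) did not pass, and Mpo, also a neutrophil marker, rose by 2.49. Itgam, which encodes CD11b, was present in both genotypes and rose by 1.88 ± 0.25 (limma adjusted p = 0.000156), from 1862 and 3527 in wt to 7883 and 15036 in KO cells.

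B cell genes were also measured in cells labelled CD11b-positive. Of 8 B cell markers 7 were on both arrays and 0 passed limma, although all 7 mean ratios were below 0, with a median of -0.85, from -0.12 on replicate 1 and -1.53 on replicate 2. The median of all genes was itself -0.21, from 0.03 on replicate 1 and -0.42 on replicate 2. The summed B cell signal was 78291 in wt and 78445 in KO cells on replicate 1, and 216310 in wt and 125205 in KO cells on replicate 2. The CD20 gene Ms4a1 was the marker without a listed probe. Divided by the channel medians, the B cell sum differed little between the arrays, at 44.8 and 56.2 in wt and 41.2 and 33.3 in KO cells on replicates 1 and 2. In wt cells the macrophage sum was lower on replicate 2 on both scales. The part of either in the array differences of Tmem176b and Ms4a6c was not tested.

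Other proteins that cross the membrane 4 times had ratios on both sides of 0. Of 33 tetraspanins and similar proteins, 21 were listed and 16 were on both arrays, of which 1 fell and 1 rose by limma, against 3.41% and 2.81% of all genes. Their median log2 ratio was -0.24, and that of all genes was -0.21. The tetraspanin Tspan13 fell by 1.54 (-1.54 on each array, limma adjusted p = 0.00374), from wt signals of 20628 and 13541 to KO signals of 7209 and 6100. Tspan5, a tetraspanin that accompanies the protease ADAM10, rose by 1.23 ± 0.68 (limma adjusted p = 0.0361), from 1672 and 4690 to 5589 and 10348. Neither passed with an intensity trend in the variance model (adjusted p = 0.0816 and 0.169).

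Among those that did not pass, the largest log2 ratios were those of Tspan31 (-0.94 ± 0.09, limma adjusted p = 0.172) and the lysosomal Laptm4a (-0.92 ± 0.08, limma adjusted p = 0.191). On replicate 2 Tspan13 stood at -1.54 and Tmem176b at -1.50.

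**Figure D4:**
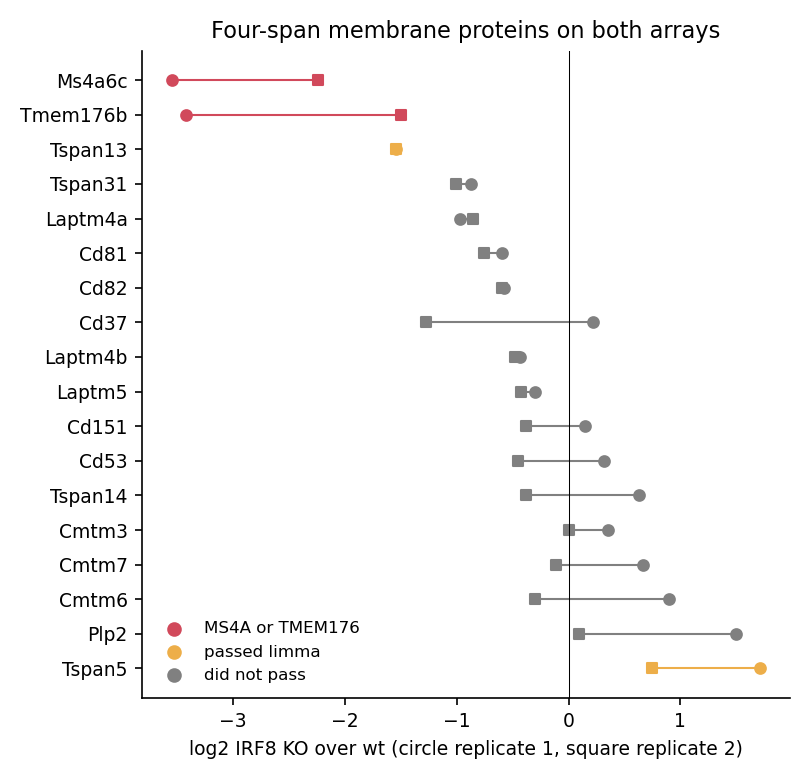
Log2 ratio of IRF8 KO over wt for Ms4a6c, Tmem176b and 16 other four-span proteins on both arrays, circles for replicate 1 and squares for replicate 2. Tspan13 and Tspan5 passed limma in opposite directions. Ms4a6c and Tmem176b, which were selected on these ratios, are shown for scale.

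Of 11 chains and kinases of the receptor complexes in which MS4A proteins are known to act, 9 were on both arrays. Of these 1 fell and 0 rose by limma, against 3.41% and 2.81% of all genes, and the median log2 ratio was -0.42, against -0.21 over all genes. Clec7a, the beta-glucan receptor dectin-1, with which MS4A4A associates in human macrophages, fell by 1.54 ± 0.18 (limma adjusted p = 0.00373). Its signals were 2513 and 5353 in wt and 802 and 2637 in KO cells. The B cell receptor chain gene Cd79b had the next largest ratio (-0.90 ± 0.92, limma adjusted p = 0.201). Fcer1g, the gamma chain that the IgE receptor shares with Fc receptors, stood at 0.05 ± 0.12, with signals of 62059 and 44565 in wt and 61778 and 64145 in KO cells. Spots above 60000 are near the scanner's ceiling, where a ratio can be compressed.

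Genes beside the members on the chromosomes did not pass the test. Within 500 kb of a member's probe, 17 genes or unnamed probes were listed, 13 of them on both arrays, and 0 passed limma, against 6.22% of all genes. An unadjusted p under 0.05 was given to 5 of the 13 and to 16.2% of all genes, and loess normalization called 2 and an intensity trend 1. Their median log2 ratio was -0.36, from -0.40 on replicate 1 and -0.81 on replicate 2, against all-gene medians of -0.21, 0.03 and -0.42. Gimap7 and Gimap4, GTPases known from lymphocytes whose probes lie 109.5 and 142.1 kb from that of Tmem176b, had the largest ratios. Gimap7 gave -0.40 and -1.87 on replicates 1 and 2 (limma adjusted p = 0.065), and Gimap4 gave -0.56 and -1.58 (limma adjusted p = 0.0927). On replicate 2 both were below Tmem176b (-1.50), whereas on replicate 1 the ratio of Tmem176b, -3.42, was far below theirs. The summed B cell signal in wt cells was 2.76-fold higher on replicate 2, or 1.25-fold after division by the channel medians, and its part in the Gimap ratios was not tested. Around the chromosome 19 cluster, the neighbours on both arrays had mean log2 ratios between -0.49 (Mrpl16) and 0.07 (Patl1), the ends of the range, named after their values were seen.

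**Figure D5:**
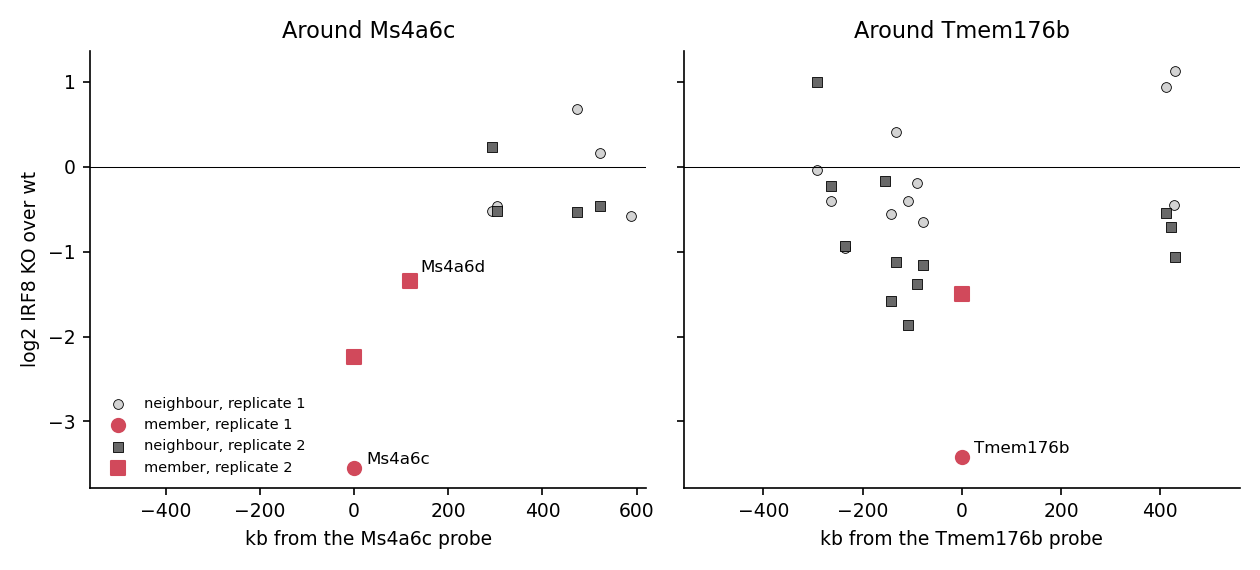
Log2 ratio of IRF8 KO over wt against distance in kb from the Ms4a6c probe (left) and the Tmem176b probe (right), with members in red, neighbours in grey, circles for replicate 1 and squares for replicate 2. On replicate 1 all neighbours lie far above the members, the lowest being Repin1 at -0.96, and on replicate 2 Gimap7 and Gimap4 lie below Tmem176b.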

How the data were processed

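Per the file headers, the authors' log2 values are ratios of Cy5 to Cy3 after median scaling in mAdb. The accompanying intensities, as deposited, are spot means less median background. Those headers also record that control features were removed and that both channels had to reach a signal of 100 and a signal to background ratio of 1. A spot dim in 1 genotype can thus be missing. Signs were turned to IRF8 KO over wt. The value table's columns for replicates 1 and 2 hold what the array names give to replicates 2 and 1, and the array names were followed.

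Probes of a gene were averaged, symbols updated through Entrez IDs (8370 of 8459 matched RefSeq), and 5192 genes tested with limma 3.58.1 (R 4.3.3, intercept, eBayes, two-sided, Benjamini-Hochberg, 0.05). In this main fit the prior degrees of freedom were infinite, so every gene had the same error. A call there meant a mean of at least 1.18 in size. The prior degrees of freedom were 7.39 with centring and 24.25 with loess, so a gene's own spread entered those p-values. The main fit was tested on simulated data with equal noise in all genes, which cannot show how it behaves where genes differ in spread. Arrays number 2, which limits precision. Listed were 6119 and 8702 probes on replicates 1 and 2. Members and lists were chosen with earlier results of these data known. Named were all members, up to 6 called and the 2 largest uncalled genes of a list, and 5 nearest genes a member. Some genes that this rule takes in are not reported here. Alternatives covered centring, loess, bright, dim and shared probes, the strongest probe, an intensity trend and each array alone.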

Additional observations from a re-analysis of the deposited data

How the results depend on the processing

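Ms4a6c and Tmem176b, selected on these ratios, stayed at least 2-fold lower on each array under centring and loess. Their mean log2 ratios were -2.74 and -2.31 with centring, -2.67 and -2.27 with loess. The filters on bright, dim and shared probes could not change either gene. Each has 1 probe that matches 1 gene ID, with signals between 727 and 19566. On single arrays the ratios ran from -3.55 to -2.24 for Ms4a6c and from -3.42 to -1.50 for Tmem176b. Ms4a6d on replicate 2 was -1.04 centred and -1.14 with loess. Over all genes, 323 passed (146 higher, 177 lower). Loess gave 658, 381 higher and 277 lower. Centring gave 160 higher and 79 lower, 66.9% higher against 45.2%. In the loess and centred fits a gene's own spread between the arrays also entered, unlike in the main fit. With an intensity trend 0 four-span genes passed, and Repin1 made 1 neighbour call. Loess made 2 (Gimap4 and Gimap7), and added Plp2. Repin1 and Plp2 were named after their values were seen. Unscaled, the log2 shift between arrays turned for wt Ms4a6c (0.69 against -0.45) and KO Tmem176b (0.65 against -0.34). The unscaled shifts of KO Ms4a6c and wt Tmem176b were 2.37 and -1.64. Divided by the channel medians, the KO sums turned from 0.59 to -0.39 for macrophage and from 0.67 to -0.31 for B cell markers, and the wt sums went from -1.09 to -2.23 and from 1.47 to 0.33. With 1 array left no test was possible, so counts of calls have no such value. The test on ratios was itself paired, because each ratio sets KO against wt on 1 array.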
